A study of Mus musculus with 20 samples.

Results

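The endocannabinoid genes described here were the 2 cannabinoid receptor genes, Cnr1 and Cnr2, and 6 genes of the enzymes that make or degrade the ligands of those receptors, Napepld, Faah, Dagla, Daglb, Mgll and Abhd6. They were chosen by gene symbol, without use of their values, and all 8 were among the 45777 genes of the table. All 8 were also above 0 TPM (a transcript level corrected for transcript length and scaled to the same total in each library) in every library and so entered the test of 18706 genes.

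Endocannabinoids are lipids released on demand from membranes. Anandamide is made by NAPE-PLD and hydrolysed by FAAH, while 2-arachidonoylglycerol (2-AG) is made from diacylglycerol by the diacylglycerol lipases and hydrolysed mainly by monoacylglycerol lipase, with a smaller part taken by ABHD6. In the mouse uterus and oviduct, the tone of anandamide around the time of attachment is known to matter for blastocyst activation and implantation, with a low level at the site of implantation.

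Uterine RNA was sequenced from wild-type B6D2F1 females of 8 to 12 weeks that had mated with males, collected in the evening (hour 18) of day 3.5, where day 0.5 is the morning of the vaginal plug. The control group received no treatment. The IF group, a model of implantation failure, received low-dose RU486 (mifepristone, which blocks the progesterone receptor and the glucocorticoid receptor) subcutaneously in the morning of day 3.5. The PBMC group received the same RU486 after an intrauterine dose, on day 1.5, of cultured peripheral blood mononuclear cells from non-pregnant female mice, and the PBMC-hCG group received such cells cultured with human chorionic gonadotropin (hCG). Each group had 5 libraries. The study also describes IF mice given culture medium that held hCG but no cells, which were not analysed here, so the cells and the injection itself cannot be told apart. The labels number the replicates without naming the mice, so the tests measure the spread between these libraries.

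Markers of the uterus were present in all 20 libraries, among them Epcam and Krt18 of epithelium, Pdgfra and Dcn of stroma, Myh11 of smooth muscle and Pecam1 of endothelium. The summed level of 5 adipocyte markers (Adipoq, Plin1, Cidec, Lep and Cfd) set 4 libraries apart. It was 374 TPM in control replicate 2, 87.2 TPM in IF replicate 5, 35.3 TPM in PBMC replicate 4 and 24.3 TPM in control replicate 3, and at most 6.44 TPM in the other libraries, where Adipoq was at 0 in 10 libraries. Values without these libraries are given below for Cnr2, Napepld, Dagla, Daglb, Mgll and Abhd6. In bulk tissue, fewer cells of a type and less RNA per cell cannot be told apart.

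The level of the 8 genes spanned a wide range. Averaged over the 20 libraries, the order was Mgll at 22.5 TPM, Daglb at 13.0 TPM, Napepld at 11.3 TPM, Abhd6 at 10.5 TPM, Faah at 4.96 TPM, Dagla at 4.70 TPM, Cnr2 at 0.997 TPM and Cnr1 at 0.0990 TPM. Mgll lay at the 64.3 percentile of the genes tested, Cnr2 at the 15.7 percentile and Cnr1 at the 1.76 percentile. The steps from Mgll to Daglb, from Abhd6 to Faah, from Dagla to Cnr2 and from Cnr2 to Cnr1 were seen in 20 of 20 libraries with no overlap of their ranges. Daglb was above Napepld in 18 of 20 libraries, whereas Napepld and Abhd6 (12 of 20) and Faah and Dagla (11 of 20) could not be ordered within their spread. Napepld was above Abhd6 in 5 of 5 control libraries but in 2 of 5 libraries of the IF group, 3 of 5 of the PBMC group and 2 of 5 of the PBMC-hCG group. Daglb varied least over the libraries, with a coefficient of variation of 10.97%, and Cnr1 most, with 47.3%.

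**Figure D1:**
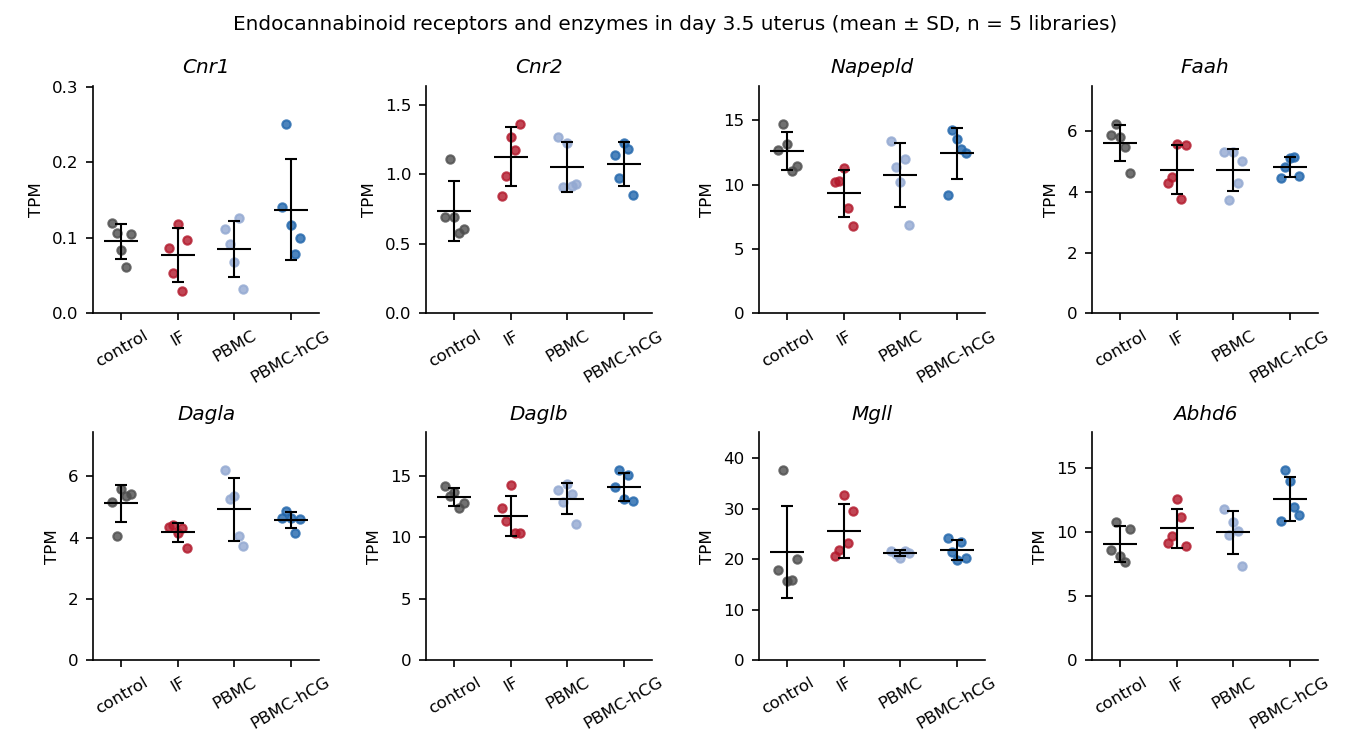
TPM of each of the 8 genes (vertical axes, each starting at 0) by group (control, IF, PBMC and PBMC-hCG), with 1 point per library, a horizontal line at the mean and bars of 1 SD (n = 5). Cnr2 lay lower in 4 of the control libraries (0.581 to 0.696 TPM) than in any other library, Abhd6 of the PBMC-hCG group lay above all control libraries, and 1 control library stood at 37.6 TPM for Mgll.

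Sequence upstream of the transcription start was taken from RefSeq (GRCm38.p6) for 12 starts of 7 of the genes, as windows of 250 bases ending at the base before the start. The windows shown are those of the 2 genes that rose against the control group, Cnr2 and Abhd6, and of Napepld, which had the largest fall in the IF group, where the window held no annotated exon. Capitals mark the short site GGTCA of the estrogen response element (TGACC when read on the other strand). Cnr2 has a distal and a proximal start on the plus strand of chromosome 4, at chr4:135894939-135895188 for the distal window and chr4:135911430-135911679 for the proximal one. The Abhd6 window is chr14:8002638-8002887 on the plus strand and the Napepld window is chr5:21701623-21701872 on the minus strand, and all are written from 5′ to 3′ along the gene.
Cnr2 distal: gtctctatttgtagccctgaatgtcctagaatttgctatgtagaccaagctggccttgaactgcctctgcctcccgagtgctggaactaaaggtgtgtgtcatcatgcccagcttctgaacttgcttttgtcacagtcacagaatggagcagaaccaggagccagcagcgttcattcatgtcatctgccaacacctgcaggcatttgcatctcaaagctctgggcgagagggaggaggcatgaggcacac
Cnr2 proximal: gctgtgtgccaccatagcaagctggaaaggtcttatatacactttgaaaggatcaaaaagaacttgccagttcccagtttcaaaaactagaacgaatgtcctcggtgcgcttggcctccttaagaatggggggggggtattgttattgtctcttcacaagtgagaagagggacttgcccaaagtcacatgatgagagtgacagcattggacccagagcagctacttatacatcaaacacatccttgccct
Abhd6: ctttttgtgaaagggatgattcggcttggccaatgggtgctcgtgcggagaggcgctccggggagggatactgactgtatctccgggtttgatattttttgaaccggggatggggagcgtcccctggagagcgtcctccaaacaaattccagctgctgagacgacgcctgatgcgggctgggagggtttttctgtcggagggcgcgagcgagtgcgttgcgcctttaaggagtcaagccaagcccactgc
Napepld: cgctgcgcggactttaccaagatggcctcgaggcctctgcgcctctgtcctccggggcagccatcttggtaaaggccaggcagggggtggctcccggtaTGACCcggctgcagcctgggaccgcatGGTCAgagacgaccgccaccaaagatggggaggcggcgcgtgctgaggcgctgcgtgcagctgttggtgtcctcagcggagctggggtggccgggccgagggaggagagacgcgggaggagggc

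The Napepld window held 2 such sites, at bases -151 to -147 and -124 to -120 from the start, and the windows of Cnr2 and the one of Abhd6 shown held none. A second Abhd6 start, not shown because 62 bases of its window lay in annotated exons, had 1 site at bases -12 to -8. Of the 12 windows, 6 held one, where 35.2% of all 32851 RefSeq windows of this length did. Some of the 12 belong to the same gene, and those of Abhd6 overlap in part, so they are not independent. The full element shared by progesterone and glucocorticoid receptors was in 0.387% of all windows and in none of the 12. AP-1 (TGANTCA, 6.75% of all windows), CRE (TGACGTCA, 1.55%) and the TATA box (TATAAA, 12.4%) were also in none of them. The GC box (GGGCGG, 32.7% of all windows) was in 4, of which 1 was the window of the first Cnr1 start with 5 copies, the E-box (CACGTG, 6.02%) was in 2, and the FOXO motif (TGTTTAC, 3.17%) in 1, that of the first Mgll start. Both strands were searched, and no 2 of these motifs overlapped in the windows. GC content was 69.6% for Napepld, 58.4% for Abhd6, 51.6% for the distal and 46.4% for the proximal start of Cnr2, against a median of 52.4% over all windows. These are matches of letters and not measured binding.

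The first comparison asked how RU486 changed the pregnant uterus before attachment. Against the control group, 1 of the 8 genes, Cnr2, differed in the IF group by limma's test with Benjamini-Hochberg adjustment over all genes tested, against 21.9% of all genes. At an unadjusted p under 0.05 there were 3 of 8 (Cnr2 higher, Napepld and Dagla lower), against 33.9% of all genes. None had a fold change of at least 2 with an unadjusted p under 0.05, the criteria of the study, which 4.03% of all genes met. The median log2 fold change of the 8 genes was -0.17, and that of all genes 0.02.

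**Figure D2:**
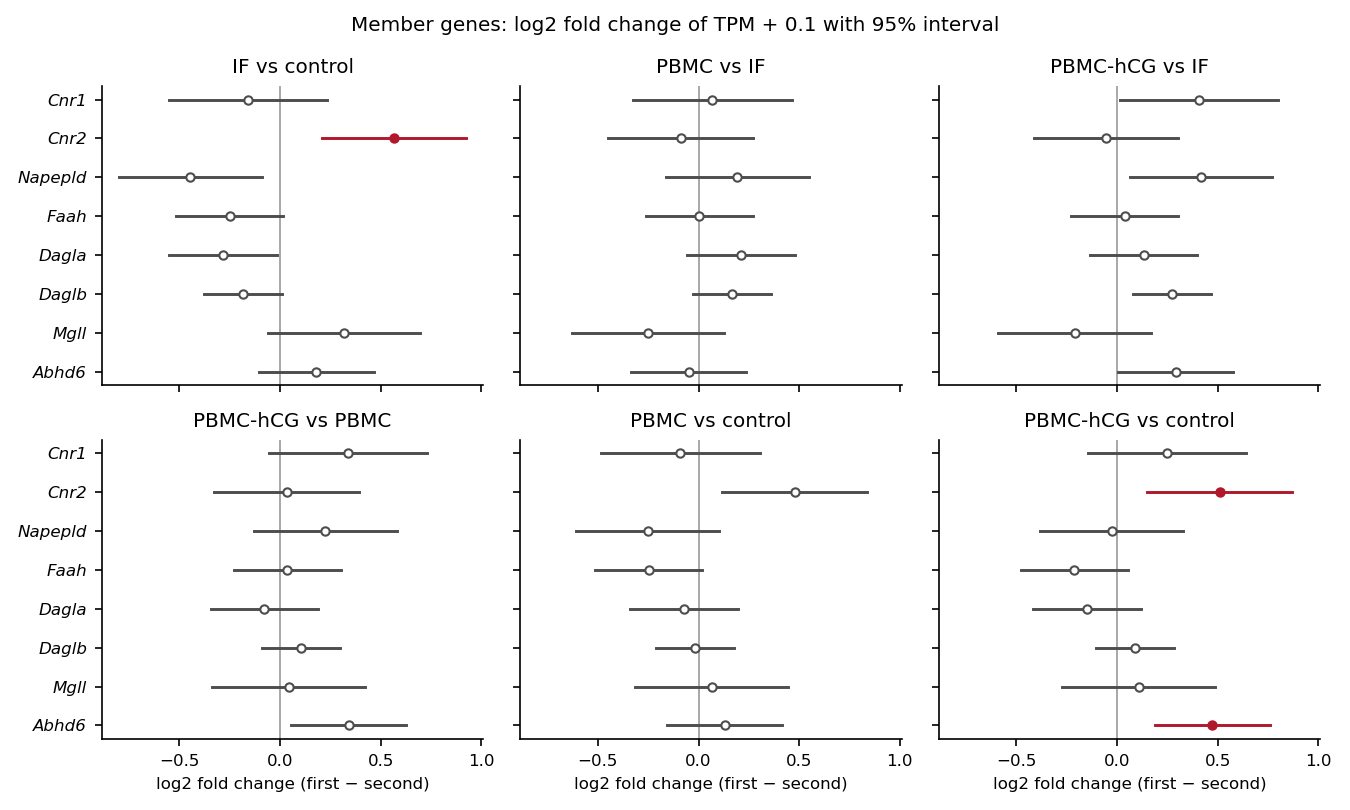
Log2 fold change of TPM + 0.1 (horizontal axes) of the 8 genes in each of the 6 comparisons, with bars for the 95% interval of the limma fit and filled red points where the adjusted p was under 0.05. Cnr2 was called in IF vs control and in PBMC-hCG vs control, and Abhd6 in PBMC-hCG vs control.

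Cnr2 (gene ID 12802, chromosome 4, 135895189 to 135920219, plus strand) encodes CB2, the cannabinoid receptor found mostly on immune cells. In control replicates 1 to 5, Cnr2 was at 0.691, 1.11, 0.696, 0.581 and 0.607 TPM. In the IF group it was at 0.841, 0.990, 1.27, 1.17 and 1.36 TPM. Only control replicate 2 reached into the range of the IF group. The PBMC libraries had 1.27, 0.911, 1.22, 0.916 and 0.931 TPM, and the PBMC-hCG libraries 1.14, 0.976, 1.23, 1.18 and 0.849 TPM. All libraries of the 3 groups given RU486 were above 4 of the 5 control libraries.

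Mean Cnr2 was 0.738 ± 0.216 TPM in controls, while the IF group had 1.13 ± 0.211 TPM (SD, n = 5). It was 1.48-fold higher in the IF group on the TPM + 0.1 scale (log2 fold change 0.57, SE 0.17, limma adjusted p = 0.0231). Against the control group, it was 1.42-fold higher in the PBMC-hCG group (1.07 ± 0.158 TPM, log2 fold change 0.51, SE 0.17, limma adjusted p = 0.0293). In the PBMC group (1.05 ± 0.180 TPM), the log2 fold change was 0.48 (SE 0.17) with a limma adjusted p of 0.0579, and the 95% interval of the fold ran from 1.09 to 1.78. Among the 3 groups given RU486, Cnr2 differed by a log2 fold change of -0.09 (PBMC vs IF), -0.06 (PBMC-hCG vs IF) and 0.03 (PBMC-hCG vs PBMC), with 95% intervals of the fold from 0.733 to 1.21, 0.750 to 1.23 and 0.798 to 1.31.

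The Cnr2 calls rested on single libraries in both directions. Without control replicate 2, the log2 fold change was 0.71 for IF (limma adjusted p = 0.00256), 0.62 for PBMC (0.00723) and 0.65 for PBMC-hCG (0.00315), and without all 4 libraries with adipocyte markers it was 0.67 (0.0163), 0.69 (0.0148) and 0.69 (0.0065). Control replicate 2 stood apart in Cnr2 itself, so leaving it out had to lower the control mean and narrow its spread. The IF call was lost without control replicate 4 (limma adjusted p = 0.0647), control replicate 5 (0.0545), IF replicate 3 (0.0523) or IF replicate 5 (0.0640). The PBMC-hCG call was lost without control replicate 1, 3, 4 or 5 (limma adjusted p 0.0543 to 0.0769) or PBMC-hCG replicate 1, 3 or 4 (0.0532 to 0.0715). With each library scaled by quantile normalization, the PBMC-hCG difference was 0.36 (limma adjusted p = 0.137).

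Some markers of immune cells, and those of vessel cells, differed beside Cnr2. Of 5 macrophage markers, Adgre1 and Csf1r rose in the IF group against control (log2 fold change 0.23 and 0.32, limma adjusted p = 0.0459 and 0.0436) and likewise in the PBMC-hCG group (0.32 and 0.53, limma adjusted p = 0.00518 and 0.00157). Cd68, Lyz2 and Mrc1 did not pass in any comparison with control, and no macrophage marker passed in PBMC vs control. The sum of all 5 ranged from 647 to 835 TPM in the control group and 638 to 868 TPM in the IF group. It was 719 to 794 TPM in the PBMC group and 660 to 985 TPM in the PBMC-hCG group. The 5 endothelial markers were all higher than control in each group given RU486. Of the B-cell markers, Cd79a and Cd79b were above 0 in all 20 libraries (means of 1.63 and 3.27 TPM), whereas Ms4a1 was at 0 in 6 libraries and Pax5 at 0 in 5. Neither Cd79a nor Cd79b passed against control, and Cd79a was lower in the IF group (log2 fold change -0.90, limma adjusted p = 0.165). Of the T-cell markers, Cd4 alone passed, and only in PBMC-hCG vs control (0.68, limma adjusted p = 0.0109). The part of any of these cells in the Cnr2 difference was not tested.

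Cnr1 (gene ID 12801, chromosome 4, 33923171 to 33948831, plus strand) encodes CB1, the receptor best known from neurons and the one through which anandamide acts on the embryo and oviduct. It was at the floor of the data. Cnr1 in the control libraries was at 0.120, 0.106, 0.0840, 0.0616 and 0.105 TPM and the IF libraries 0.0866, 0.0534, 0.119, 0.0292 and 0.0978 TPM. Those of the PBMC group had 0.112, 0.0914, 0.0676, 0.126 and 0.0323 TPM and the PBMC-hCG libraries 0.141, 0.251, 0.118, 0.0786 and 0.0996 TPM. The ranges of all groups overlapped, and PBMC-hCG replicate 2 was the highest.

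No comparison of Cnr1 passed the test after adjustment. The largest was PBMC-hCG vs IF, 0.138 ± 0.0674 against 0.0771 ± 0.0357 TPM (SD, n = 5), with a log2 fold change of 0.41 (SE 0.19) and a limma adjusted p of 0.132. At this level the pseudocount of 0.1 TPM is about as large as the value and draws fold changes toward 0. The number of reads behind a TPM value is unknown, so no limit of detection could be given. Markers of nerve and Schwann cells, which could also carry Cnr1, were low in every library, with a sum of 5 markers between 4.38 and 7.58 TPM.

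Napepld (gene ID 242864, chromosome 5, 21662901 to 21701622, minus strand) encodes NAPE-PLD, the phospholipase that releases anandamide. The control libraries had 12.7, 14.7, 13.1, 11.1 and 11.4 TPM and the IF libraries 10.2, 10.2, 11.2, 8.20 and 6.77 TPM. Of the IF group, only replicate 3 reached the control range. The PBMC libraries had 13.4, 11.4, 10.2, 12.0 and 6.84 TPM, which spread over both ranges. The PBMC-hCG libraries had 9.15, 14.3, 13.6, 12.8 and 12.4 TPM, of which all but replicate 1 were above every IF library.

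Napepld averaged 12.6 ± 1.45 TPM in controls, 9.33 ± 1.81 TPM under RU486 alone (IF), 10.8 ± 2.47 TPM in the PBMC group and 12.4 ± 1.97 TPM in the PBMC-hCG group (SD, n = 5). The difference of IF from control, a log2 fold change of -0.45 (SE 0.17), had a limma adjusted p of 0.0675, with a 95% interval of the fold from 0.574 to 0.939. That of PBMC-hCG from IF was 0.42 (SE 0.17, limma adjusted p = 0.0917), with an interval from 1.04 to 1.71. The two-sided exact permutation test of each on its own gave p = 0.0159 and p = 0.0476, where the smallest possible p is 0.00794. Between PBMC-hCG and control the log2 fold change was -0.03, with an interval of the fold from 0.767 to 1.25. The IF and PBMC-hCG comparisons share the IF libraries, so they are not independent of each other. The part of any cell type in the Napepld values was not tested.

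Without the 4 libraries with adipocyte markers, the Napepld differences were smaller, at -0.24 for IF vs control (limma adjusted p = 0.424) and 0.31 for PBMC-hCG vs IF (0.248). Leaving out single libraries gave -0.52 to -0.34 for IF vs control and 0.31 to 0.52 for PBMC-hCG vs IF, with the smallest size of each without IF replicate 5. They passed the threshold without IF replicate 3 (IF vs control -0.52, limma adjusted p = 0.0459, and PBMC-hCG vs IF 0.49, 0.0477) and, for PBMC-hCG vs IF, without PBMC-hCG replicate 1 (0.52, 0.0360). The IF difference also passed with quantile normalization (-0.45, limma adjusted p = 0.0363) or with each library centred on its median (-0.45, 0.0426).

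Faah (gene ID 14073, chromosome 4, 115996668 to 116018837, minus strand) encodes the hydrolase that ends the action of anandamide. In controls, Faah was at 5.86, 6.22, 5.80, 5.47 and 4.63 TPM and the IF libraries 4.27, 4.48, 5.56, 3.76 and 5.54 TPM. In the PBMC group it was at 5.30, 3.72, 5.30, 4.29 and 5.001 TPM and the PBMC-hCG libraries 4.44, 4.82, 5.12, 5.14 and 4.504 TPM. Of all 15 libraries given RU486, none reached the 3 highest control libraries, though each of these groups overlapped the control range. IF replicates 3 and 5 lay above control replicates 4 and 5, whereas the highest PBMC and PBMC-hCG libraries lay above control replicate 5 alone.

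Faah averaged 5.60 ± 0.603 TPM in controls, against 4.72 ± 0.799 (IF), 4.72 ± 0.695 (PBMC) and 4.80 ± 0.329 TPM (PBMC-hCG) (SD, n = 5). Its log2 fold changes against the control group were -0.25, -0.25 and -0.21 (SE 0.13 each), and none passed (limma adjusted p = 0.175, 0.192 and 0.215). On its own, the two-sided exact permutation test gave p = 0.0714, 0.0714 and 0.0397. The 95% intervals of the fold were 0.699 to 1.01, 0.701 to 1.01 and 0.718 to 1.04. The groups given RU486 differed from each other by at most 0.04 on the log2 scale, with intervals of the fold within 0.834 and 1.23. The part of any cell type in the Faah values was not tested.

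The ratio of Napepld to Faah sets the maker of anandamide against its hydrolase. On the log2 scale it was 1.17 ± 0.11 in the control group, 0.98 ± 0.39 in the IF group, 1.17 ± 0.47 in the PBMC group and 1.36 ± 0.20 in the PBMC-hCG group (SD, n = 5). The control libraries lay closest together, between 2.02 and 2.46 as a plain ratio, and the lowest ratio, 1.22, was in the IF group. No test was made of this ratio.

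Dagla (gene ID 269060, chromosome 19, 10245265 to 10304877, minus strand) encodes diacylglycerol lipase alpha, one of the pair of enzymes that make 2-AG. Dagla in the control libraries was at 5.17, 4.07, 5.59, 5.37 and 5.42 TPM and the IF libraries 4.36, 4.41, 4.14, 4.31 and 3.66 TPM. All but control replicate 2, the library highest in adipocyte markers, lay above the IF range. In the PBMC group it was at 6.20, 5.27, 5.38, 4.06 and 3.71 TPM and the PBMC-hCG libraries 4.66, 4.86, 4.64, 4.17 and 4.59 TPM. The PBMC group held both the highest library of all and 1 close to the lowest.

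Dagla averaged 5.12 ± 0.609 TPM in controls, against 4.18 ± 0.306 TPM in the IF group (SD, n = 5), a log2 fold change of -0.28 (SE 0.13) that did not pass (limma adjusted p = 0.125; exact permutation p = 0.0397 on its own). Without control replicate 2, the difference was -0.36 with a limma adjusted p of 0.0394. That library stood apart in Dagla itself, so leaving it out had to raise the control mean and narrow its spread. Without all 4 libraries with adipocyte markers, the difference was -0.30 with a limma adjusted p of 0.150. The PBMC group averaged 4.92 ± 1.02 TPM and the PBMC-hCG group 4.58 ± 0.253 TPM. Their log2 fold changes against the control group were -0.07 and -0.15, with 95% intervals of the fold from 0.790 to 1.14 and 0.749 to 1.08.

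Daglb (gene ID 231871, chromosome 5, 143464484 to 143504442, plus strand) encodes diacylglycerol lipase beta, the form known from macrophages and microglia. The control libraries had 14.1, 13.3, 13.7, 12.3 and 12.7 TPM and the IF libraries 12.4, 11.3, 14.2, 10.3 and 10.4 TPM. The PBMC libraries had 13.8, 12.8, 14.3, 13.5 and 11.1 TPM and the PBMC-hCG libraries 14.1, 15.4, 13.1, 15.0 and 12.9 TPM. Replicate 3 stood above the other IF libraries, and without it no IF library reached the PBMC-hCG range.

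Daglb averaged 13.2 ± 0.714 TPM in controls, 11.7 ± 1.64 TPM in IF libraries, 13.1 ± 1.26 TPM in the PBMC group and 14.1 ± 1.13 TPM in the PBMC-hCG group (SD, n = 5). Between PBMC-hCG and IF, the log2 fold change was 0.27 (SE 0.09, limma adjusted p = 0.0549), with a 95% interval of the fold from 1.06 to 1.38. Without IF replicate 3 it was 0.34 (limma adjusted p = 0.0136), and the difference of IF from control was then -0.26 (limma adjusted p = 0.0429) in place of -0.18 (limma adjusted p = 0.169). Leaving out each library in turn gave 0.23 to 0.34 for PBMC-hCG vs IF and -0.26 to -0.14 for IF vs control. Neither passed with any other single library left out. Without the 4 libraries with adipocyte markers, these differences were 0.23 (limma adjusted p = 0.162) and -0.12 (limma adjusted p = 0.495). Daglb shares 2309 exon bases with Rac1 on the opposite strand. The libraries were stranded, but the strand setting of the counting was not given in the sources used here, so reads of the shared stretch could be split between them. Rac1 itself rose in the IF group against control (log2 fold change 0.21, limma adjusted p = 0.0192). The part of Rac1 reads in the Daglb values was not tested.

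Mgll (gene ID 23945, chromosome 6, 88724412 to 88828360, plus strand) encodes monoacylglycerol lipase, which hydrolyses 2-AG and, in adipocytes, completes the breakdown of stored fat. Mgll in the control libraries was at 17.8, 37.6, 15.7, 15.9 and 19.97 TPM and the IF libraries 20.6, 21.7, 32.7, 23.3 and 29.6 TPM. Control replicate 2 had the highest value of all 20 libraries, and the other control libraries lay below every IF library. In the PBMC group it was at 21.6, 21.0, 20.2, 21.6 and 21.3 TPM, the tightest group of any gene here with a coefficient of variation of 2.81%. The PBMC-hCG libraries had 24.2, 21.4, 19.9, 23.4 and 20.1 TPM.

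Mgll averaged 21.4 ± 9.19 TPM in controls, against 25.6 ± 5.30 TPM in IF libraries (SD, n = 5), a log2 fold change of 0.32 (SE 0.18, limma adjusted p = 0.233). Without control replicate 2, which had 374 TPM of adipocyte markers, the control mean was 17.4 TPM and the IF difference 0.54 (limma adjusted p = 0.00217), and the PBMC-hCG difference from control was 0.33 (limma adjusted p = 0.0310) in place of 0.11 (limma adjusted p = 0.691). Control replicate 2 stood apart in Mgll itself, so leaving it out had to lower the control mean and narrow its spread. Without all 4 libraries with adipocyte markers, the IF difference was 0.44 (limma adjusted p = 0.0297) and the PBMC-hCG difference 0.28 (limma adjusted p = 0.0877). The second highest sum of adipocyte markers was in IF replicate 5, where Mgll was 29.6 TPM, but the highest IF value of Mgll, 32.7 TPM, was in replicate 3, where all 5 markers were at 0. The part of adipocyte RNA in the Mgll values was not tested. Mgll also shares 167 exon bases with an antisense gene, Gm26588.

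**Figure D3:**
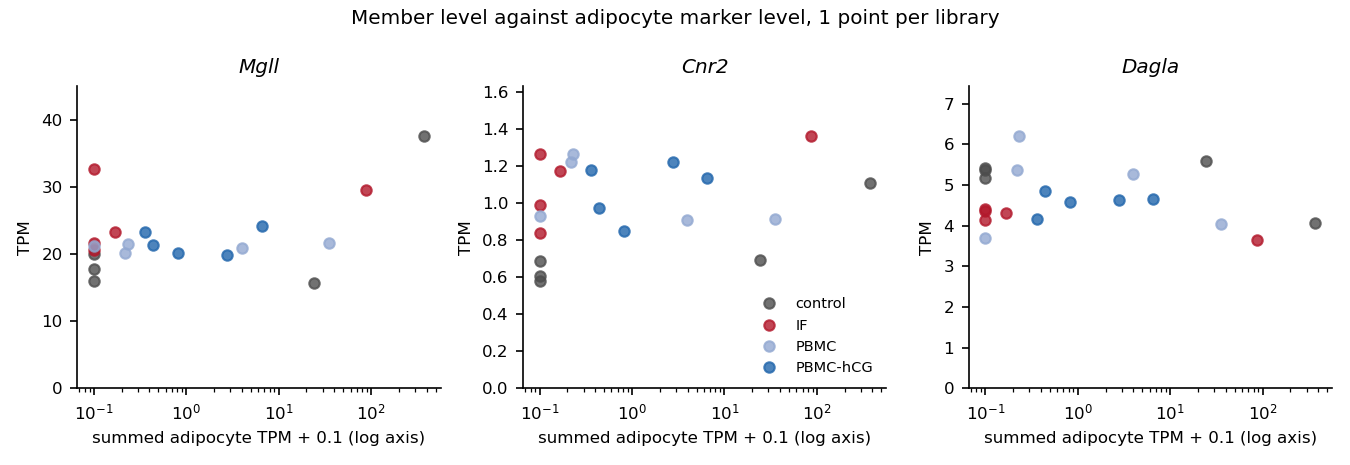
TPM of Mgll, Cnr2 and Dagla (vertical axes from 0) against the summed TPM of 5 adipocyte markers + 0.1 (horizontal axes, log scale), with 1 point per library coloured by group. The rightmost control library, replicate 2 at 374 TPM, was the highest control library for Mgll (37.6 TPM) and Cnr2 (1.11 TPM) and the lowest for Dagla (4.07 TPM).

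Abhd6 (gene ID 66082, chromosome 14, 8002888 to 8056773, plus strand) encodes a membrane hydrolase that takes a smaller part of 2-AG. The control libraries had 8.54, 10.8, 8.11, 7.60 and 10.2 TPM and the PBMC-hCG libraries 10.8, 14.8, 14.0, 11.9 and 11.3 TPM. Every PBMC-hCG library was above every control library, although the lowest of one and the highest of the other were both near 10.8 TPM. The IF libraries had 9.13, 9.66, 12.5, 11.1 and 8.88 TPM and the PBMC libraries 11.7, 9.77, 10.8, 10.1 and 7.32 TPM. Both of these groups overlapped the control and the PBMC-hCG ranges.

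Abhd6 averaged 9.04 ± 1.37 TPM in controls, against 12.6 ± 1.72 TPM with PBMC-hCG (SD, n = 5). It was 1.39-fold higher in the PBMC-hCG group (log2 fold change 0.47, SE 0.14, limma adjusted p = 0.0131), and the two-sided exact permutation test gave p = 0.00794, the smallest it can give. The call held without each library in turn and without the 4 libraries with adipocyte markers (0.51, limma adjusted p = 0.0209). The IF group averaged 10.3 ± 1.53 TPM and the PBMC group 9.94 ± 1.65 TPM, with log2 fold changes against control of 0.18 and 0.13 (limma adjusted p = 0.382 and 0.558). The differences of PBMC-hCG from IF (0.29, SE 0.14, limma adjusted p = 0.135) and from PBMC (0.34, SE 0.14, limma adjusted p = 0.283) did not pass, with 95% intervals of the fold from 1.004 to 1.49 and 1.04 to 1.55. Of the 5 smooth muscle markers, 4 fell in PBMC-hCG vs control, and their sum had a median of 3415 TPM against 5684 TPM. In the same comparison, Krt8, Krt18 and Cdh1 of epithelium rose, Foxa2 fell and Epcam did not pass. The sum of these epithelial markers had a median of 931 TPM against 553 TPM. Dcn of stroma and all 5 endothelial markers also rose, while Hoxa10 and Hoxa11 of stroma fell. The part of any of these cells in the Abhd6 difference was not tested.

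In PBMC-hCG vs control, 2 of the 8 genes thus passed after adjustment, Cnr2 and Abhd6, both higher, against 31.8% of all genes, and the same 2 had an unadjusted p under 0.05, against 42.2% of all genes. None met the criteria of the study, which 4.74% of all genes met. The groups did not overlap for 1 of the 8 genes, Abhd6, and for 18.3% of all genes. In both comparisons with a call after adjustment, the share of the 8 genes called was below that of all genes. With so few genes, a single further call would have put it above, so this is not a result about them.

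The question of whether the cells changed these genes in mice given RU486 was addressed by comparing the PBMC and PBMC-hCG groups with the IF group. In PBMC vs IF, 0 of the 8 genes passed by limma and 0 had an unadjusted p under 0.05, against 0% and 6.79% of all genes, and the study's criteria were met by 0 of the 8 and 0.438% of all genes. The exact permutation tests gave no p under 0.05 for any of them in this comparison. In PBMC-hCG vs IF, 0 of 8 passed by limma against 13.6% of all genes. At an unadjusted p under 0.05 there were 4 of 8, Cnr1, Napepld, Daglb and Abhd6, against 35% of all genes. All 4 were higher in the PBMC-hCG group. The exact permutation test had p under 0.05 for Napepld, Dagla and Daglb. That test was run on the 8 genes alone, so no share of all genes can be set beside it. For Dagla, the unadjusted limma p was 0.314. None met the study's criteria, which 2.31% of all genes met. The median log2 fold change of the 8 genes was 0.20, against 0.05 for all genes.

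The added effect of hCG in the culture was addressed by PBMC-hCG vs PBMC. Here 0 of the 8 genes passed by limma, against 0.0107% of all genes, and 1, Abhd6, had an unadjusted p under 0.05, against 16.2% of all genes. The exact permutation test gave p = 0.0317 for Abhd6. The study's criteria were met by 0 of the 8 and 0.893% of all genes. In PBMC vs control, 0 of 8 passed by limma against 19.5% of all genes, 1 of 8, Cnr2, had an unadjusted p under 0.05 against 31.6%, and none met the study's criteria against 3.34%. Without control replicate 2, Cnr2 passed here as well.

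The 2-AG enzymes were also set against each other within libraries. The log2 ratio of Dagla to Mgll was -1.99 ± 0.70 in the control group, -2.59 ± 0.38 in the IF group, -2.13 ± 0.32 in the PBMC group and -2.25 ± 0.17 in the PBMC-hCG group (SD, n = 5). Control replicate 2 had the lowest of all, -3.21, and the highest ratio was also in the control group. The log2 ratio of Mgll to Abhd6, the hydrolases of 2-AG, was 1.17 ± 0.36, 1.31 ± 0.27, 1.105 ± 0.27 and 0.80 ± 0.28 in the same order. Daglb stood above Dagla by 1.38 ± 0.21, 1.48 ± 0.20, 1.43 ± 0.23 and 1.62 ± 0.15 on the log2 scale. These ratios are descriptions and were not tested.

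**Figure D4:**
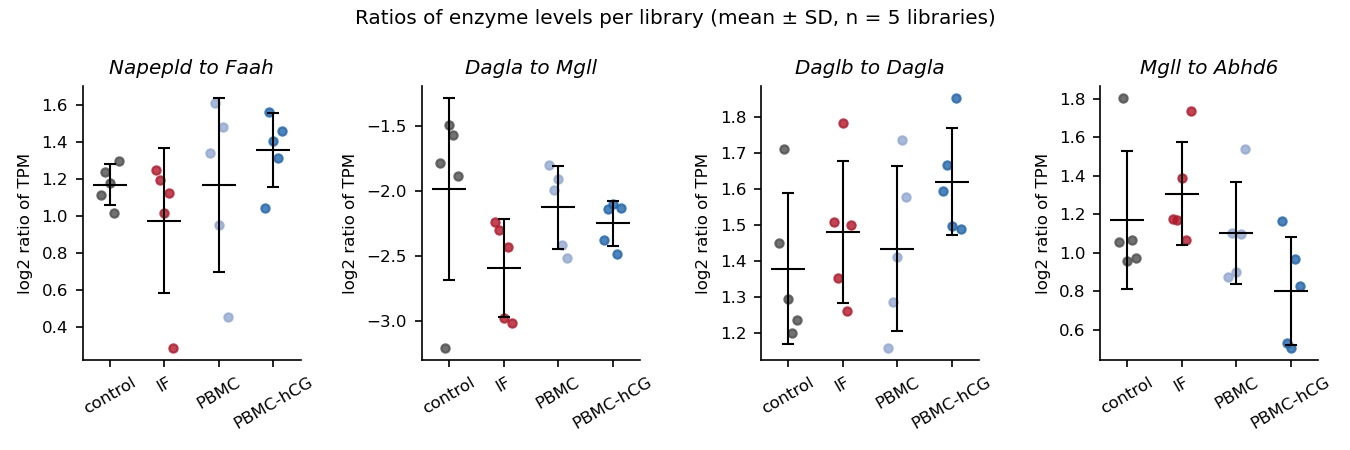
Log2 ratio of TPM between enzymes in the same library (vertical axes, not starting at 0), by group, with 1 point per library, a line at the mean and bars of 1 SD (n = 5). The ratio of Dagla to Mgll was lowest in 1 control library, replicate 2, at -3.21, and the other 4 control libraries lay above all IF libraries.

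Across the 20 libraries, Napepld and Daglb varied together (Pearson r = 0.75, and 0.67 after subtraction of the group means), as did Cnr2 and Mgll (0.67 and 0.72), while Dagla and Mgll ran opposite (-0.61 and -0.52). These pairs were not alone. Cnr1, at the floor, and Daglb had 0.67 and 0.60, Napepld and Abhd6 0.47 and 0.70, and Cnr2 and Faah 0.02 and 0.62. These values are descriptions over libraries that share group effects and, for Mgll, Cnr2 and Dagla, control replicate 2. Among 15765 genes of at least 1 TPM, those most like each member over the 20 libraries were Ppfibp1 for Cnr2 (r = 0.89, followed by Arhgap17 and Pdzd2), Slc50a1 for Napepld (0.94, Fgf10 and D630003M21Rik), Cx3cl1 for Faah (0.82, Tshr and Tbc1d9) and Tnfrsf11a for Dagla (0.86, LOC115486128 and Klhl29). They were Duxbl1 for Daglb (0.85, Rbl2 and Dym), Blnk for Mgll (0.95, Sbds and Paox) and Ppfibp2 for Abhd6 (0.90, Cfhr2 and Zfp169).

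Beyond the 8 genes, the pathway was described with 42 further genes, of which 37 were above 0 TPM in all libraries. In IF vs control, 7 of the 37 passed by limma, 5 higher and 2 lower, against 21.9% of all genes. In PBMC vs control 9 passed, 7 higher and 2 lower, against 19.5%, and in PBMC-hCG vs control 13 passed, 9 higher and 4 lower, against 31.8%. In PBMC-hCG vs IF 4 passed, 2 in each direction, against 13.6%. These shares were near those of all genes. In PBMC vs IF and in PBMC-hCG vs PBMC, 0 passed by limma, with 2 and 5 at an unadjusted p under 0.05, against 6.79% and 16.2% of all genes. The median log2 fold change of the 37 genes was 0.06 in IF vs control and 0.06 in PBMC-hCG vs control, against 0.02 and 0.08 for all genes.

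Other genes of synthesis were led by Abhd4, a lipase of an alternative route to anandamide. Abhd4 was 79.6 ± 16.8 TPM in controls, 120 ± 16.01 TPM in IF libraries, 123 ± 13.9 TPM in the PBMC group and 145 ± 8.00 TPM in the PBMC-hCG group (SD, n = 5). Its log2 fold change against control was 0.61 for IF (SE 0.12, limma adjusted p = 0.00104), 0.65 for PBMC (limma adjusted p = 0.00065) and 0.89 for PBMC-hCG (limma adjusted p = 2.7e-05). Every group mean of Abhd4 was above that of Napepld on the TPM scale. Gde1, a phosphodiesterase of that route, fell in the IF group (log2 fold change -0.19, limma adjusted p = 0.0181) and in the PBMC-hCG group (-0.15, limma adjusted p = 0.0459). Inpp5d, a phosphatase of blood cells listed for a further route, rose in all 3 groups against control, by 0.38, 0.40 and 0.36. Ptpn22, another phosphatase of immune cells, rose in the PBMC-hCG group (0.72, SE 0.17, limma adjusted p = 0.00349), and Plaat3, a phospholipid acyltransferase, rose there against both control (0.38) and IF (0.48).

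Among other genes of breakdown, Naaa, the acid amidase that prefers palmitoylethanolamide, was 70.3 ± 11.5 TPM in controls, against 99.7 ± 8.66 TPM in IF libraries (SD, n = 5; log2 fold change 0.51, SE 0.10, limma adjusted p = 0.000824), and it also rose in the PBMC group (0.35, limma adjusted p = 0.0146). Naaa was far above Faah in level. Their differences from control had opposite signs, but no difference of Faah passed, nor did that of Naaa in PBMC-hCG vs control. Abhd12 fell (-0.24) and Abhd2 rose (0.46) in PBMC vs control, both hydrolases of 2-AG. Ptgs2 (COX-2), which oxygenates 2-AG and anandamide to prostaglandin relatives, was 3.22 ± 1.79 TPM in IF libraries and 0.822 ± 0.619 TPM in the PBMC-hCG group (log2 fold change -1.87, SE 0.55, limma adjusted p = 0.0385). Alox12, a lipoxygenase, rose in the PBMC-hCG group against IF (0.36, limma adjusted p = 0.0292) and against control (0.26, limma adjusted p = 0.0351).

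Among other receptors and channels, Ppard (PPAR delta, a nuclear receptor for fatty acid derivatives) rose in the IF group against control (0.43, SE 0.12, limma adjusted p = 0.0137) and fell in the PBMC-hCG group against IF (-0.41, limma adjusted p = 0.0363). Gpr119 was at 0 in all libraries and Trpv1 in 13 of 20, so neither was tested. Of the carriers of anandamide, Fabp5 fell in PBMC-hCG vs control from 48.2 ± 8.27 to 22.8 ± 12.6 TPM (log2 fold change -1.23, SE 0.34, limma adjusted p = 0.0106), and Fabp3 fell there too (-0.29, limma adjusted p = 0.0407). Of the CB1-binding proteins, Cnrip1 rose in all 3 groups against control (0.31, 0.31 and 0.41), and Gprasp1 (0.53) and Gprasp2 (1.03, SE 0.27, limma adjusted p = 0.00694) rose in PBMC-hCG vs control. They were all many times the level of Cnr1.

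Of the inhibitory G protein alpha subunits through which both receptors signal, Gnai1 fell in all 3 groups given RU486. It was 46.1 ± 7.29 TPM in controls, against 25.8 ± 2.48 (IF), 25.6 ± 2.39 (PBMC) and 29.1 ± 1.57 TPM (PBMC-hCG) (SD, n = 5), with log2 fold changes of -0.83, -0.83 and -0.65 (limma adjusted p = 1.3e-05, 1.5e-05 and 0.000124). Gnai2, the most abundant at 428 TPM over all libraries, rose in PBMC vs control (0.22, limma adjusted p = 0.0361), and Gnao1 rose in PBMC vs control (0.33) and PBMC-hCG vs control (0.31). None of the 4 phospholipase C beta genes passed in any comparison.

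The count of pathway genes in PBMC-hCG vs IF depended on single libraries. It was 0 without IF replicate 2, 4 or 5 or PBMC-hCG replicate 2, 3, 4 or 5, 12 without IF replicate 3 and 7 without PBMC-hCG replicate 1. The share of all genes that passed in these fits was not kept. A swing of the pathway count therefore cannot be told apart from one of all genes.

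**Figure D5:**
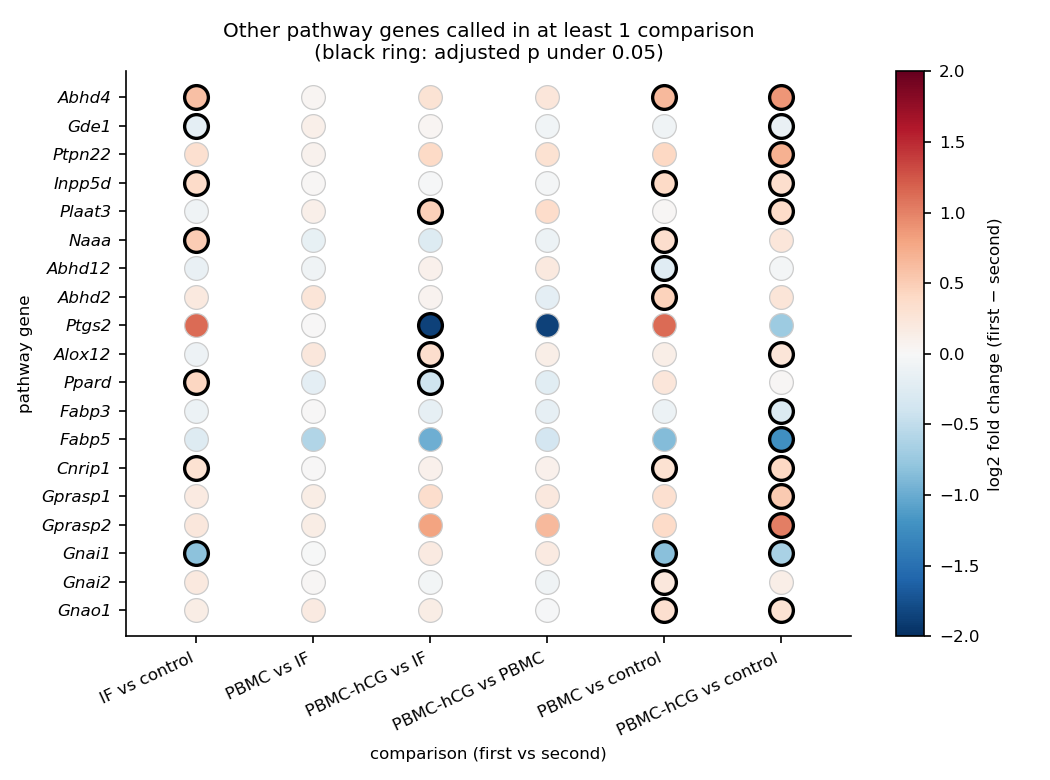
Log2 fold change of TPM + 0.1 (colour) of the pathway genes that passed in at least 1 comparison (rows), by comparison (columns), with a black ring where the limma adjusted p was under 0.05. Abhd4, Inpp5d and Cnrip1 were higher and Gnai1 lower than in the control group in all 3 groups given RU486, and Ptgs2 was lower in PBMC-hCG than in IF libraries, with a fold change of -1.87 on the log2 scale.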

How the data were processed

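Uterine poly(A) RNA of 20 libraries was measured by RNA-seq. The authors deposited TPM values, made per their methods and processing notes by trimming with Trimmomatic, alignment to mm10 with HISAT2 and assembly with StringTie from stranded mRNA libraries. Versions are not given in the sources used here. TPM totals lay between 999989 and 999999 in every library, so depth is unknown and no counting interval could be given. No columns were identical.

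Groups were taken from the sample labels. Here, log2(TPM + 0.1) of the 18706 genes above 0 TPM in all 20 libraries was fitted with limma 3.58.1 in R 4.3.3, with all 4 groups together and a variance trend. Benjamini-Hochberg adjustment covered all genes of a comparison. The authors tested counts with edgeR's exact test, which TPM does not allow. Exact permutation tests were two-sided over 252 arrangements. Tables were read with pandas 2.3.3 in Python 3.11.15, and matplotlib 3.10.9 drew the figures. All members were described, with the pathway genes called in at least 1 comparison. For each member with a mean of at least 0.5 TPM, the 3 genes of highest correlation were named. The members, gene lists, markers and motifs were chosen with earlier results of these data known. On simulated data for IF vs control with 18706 genes, 79% of genes changed by 1 on the log2 scale and 90% of those changed by 2 were called, with 5 false calls. Alternatives were other pseudocounts, filters, scalings and fits, each library left out, and, added after the data were seen, the 4 libraries with over 10 TPM of adipocyte markers left out. A marker from the fixed lists, and the summed level that used it, are not reported here.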

Additional observations from a re-analysis of the deposited data

Results flagged for a closer look

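In 3 of the 32 sets of 5 libraries (8 genes in 4 groups), 1 library stood farther from the others than Dixon's test allows at its 95% level, and chance alone gives such a gap in about 1 in 20 sets. All 3 were control replicate 2. There Cnr2 was 1.11 TPM, with the other control libraries at 0.581 to 0.696 TPM. Mgll was 37.6 TPM, with the others at 15.7 to 19.97 TPM. Dagla was 4.07 TPM, with the others at 5.17 to 5.59 TPM. The same library had 374 TPM of the 5 adipocyte markers, and the part of these cells in the 3 values was not tested.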

How the results depend on the processing

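The limits come first. TPM values carry no read number, so the precision of a gene near the floor, Cnr1 above all, could not be given, and small changes of Cnr2 rest on about 1 TPM. The cause of each change below was not tested, except that fewer libraries and another number of genes change what is fitted and adjusted. The share of all genes called under each alternative was not kept. A moved count is therefore not a result about these genes alone.

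Of the calls, Abhd6 in PBMC-hCG vs control held under every alternative tried, whereas Cnr2 did not. In IF vs control the number of the 8 genes called was 1, and it was 0 with no filter, with a filter on a mean of at least 1 TPM (Cnr2 is then not tested) or with only the 2 groups in the fit, and 2 with quantile normalization, median centring or the adipocyte libraries left out. Leaving out single libraries gave 0 to 3, with 3 without control replicate 2. In PBMC-hCG vs IF it was 1 with a mean of at least 1 TPM, and 0 to 2 without single libraries. In PBMC vs control it was 1 without a variance trend or without the adipocyte libraries, and 0 to 1 without single libraries. In PBMC-hCG vs control it was 1 with no filter, a mean of at least 1 TPM, quantile normalization, median centring or only 2 groups in the fit, and 1 to 3 without single libraries (Mgll joins without control replicate 2).

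The pathway count in IF vs control was 4 with 2 groups in the fit. In PBMC-hCG vs IF it was 2 with no filter and 0 without the adipocyte libraries, and 0 to 12 without single libraries. Libraries of the same replicate number were not alike throughout (correlations of their deviations from -0.247 to 0.457), and the main fit did not pair them. The labels do not say what such libraries share, and these correlations cannot exclude a shared day or batch for some. With a replicate block the members called were 2 in IF vs control (Napepld with Cnr2) and 1 in PBMC-hCG vs IF (Daglb), and no other member call changed.

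Signs turned only among differences that did not pass. With quantile normalization the log2 fold change of Faah was -0.057 (PBMC vs IF), -0.064 (PBMC-hCG vs IF) and -0.0079 (PBMC-hCG vs PBMC), and that of Cnr2 -0.041 (PBMC-hCG vs PBMC). Median centring gave -0.027 and -0.023 for Faah in PBMC vs IF and PBMC-hCG vs IF. Without the adipocyte libraries, Cnr2 was 0.020 (PBMC vs IF), 0.011 (PBMC-hCG vs IF) and -0.0087 (PBMC-hCG vs PBMC), and Napepld 0.070 (PBMC-hCG vs control). Without single libraries, PBMC vs IF ran from -0.073 to 0.084 for Faah, -0.114 to 0.055 for Abhd6 and -0.038 to 0.185 for Cnr1. PBMC-hCG vs IF ran from -0.038 to 0.0998 for Faah and -0.147 to 0.018 for Cnr2. PBMC-hCG vs PBMC ran from -0.171 to 0.010 for Dagla, -0.014 to 0.107 for Cnr2 and -0.046 to 0.079 for Faah. PBMC vs control ran from -0.051 to 0.040 for Daglb, -0.025 to 0.288 for Mgll, -0.167 to 0.026 for Cnr1 and -0.160 to 0.021 for Dagla. PBMC-hCG vs control ran from -0.080 to 0.078 for Napepld.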
